A study of Mus musculus with 8 samples.

Results

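The genes of the synaptic vesicle release machinery were examined in total RNA of the dorsal dentate gyrus from mice that have or lack Cav3.1, a T-type calcium channel. The set held 40 genes for SNARE proteins, vesicle proteins, calcium sensors and active zone proteins. A gene was represented by the probe that carries its symbol in the platform's annotation, and of several probes the one with the highest mean spot intensity over all 8 arrays was taken. This gave 38 genes, out of 19321 gene symbols on the array, and no probe carried the symbols Doc2a or Erc2. All 38 passed the filter on dim probes, 37 of them detected on all 8 arrays and Sv2c on 6.

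Both groups were male C57BL/6J mice, aged 8 to 12 weeks by their labels, with no treatment named. They differed in genotype, which was wild type (WT) or Cav3.1 knockout (Cav3.1 KO in the labels, KO below), and each group had 4 arrays of 1 colour. How the knockout was made, and whether the groups were littermates, was not given in the sources used here. The design text speaks of slices and not of separate animals, so p-values measure only the spread between these samples, part of which may be technical.

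Neurotransmitter is released when a vesicle fuses with the presynaptic membrane, a step driven by the zippering of the vesicle SNARE Vamp2 with Stx1a and Snap25 on the plasma membrane. Synaptotagmins on the vesicle sense calcium, complexins bind the assembled SNAREs and both hold back and promote fusion, and Nsf with the SNAP adaptors takes the spent complexes apart. Rims, Munc13 proteins, Bassoon and Piccolo form the active zone, where vesicles are docked and primed. The mossy fibres, the axons of the dentate granule neurons, release glutamate from large terminals packed with such vesicles.

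Values below are normalised log2 intensities, given in the order of replicates 1 to 4, and a difference is the KO mean less the WT mean, with its standard error (SE) from limma. A probe passed the test if its limma p, adjusted by Benjamini-Hochberg over all 21150 probes tested, was under 0.05. Exact permutation p-values are two-sided over the 70 arrangements of the arrays, of which the smallest possible is 0.0286. Dim spots are compressed toward the blank level on this scale, so the differences of dim genes are understated.

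The targeted gene Cacna1g was read 6.43, 6.61, 6.53 and 6.61 in WT and 6.55, 6.43, 6.39 and 6.48 in KO. The groups overlapped, with a difference of -0.08 (SE 0.0508, limma adjusted p 0.816). Where the probe lies relative to the deleted sequence was not given in the sources used here, so its level did not check the labels. All 10 granule neuron markers were detected on all 8 arrays and so were the 6 CA1 and 6 astrocyte markers. The same held for 19402 of the 21150 probes tested, so detection did not check the tissue. The mean blank spot lay between 53.0 and 63.4 and the median spot between 80.9 and 94.3 on the 8 arrays, and arrays correlated at 0.991 to 0.997. The deposited chip numbers fall in 2 series, the second holding WT replicate 3 and KO replicate 4. The file headers give a slope between scan gains that falls in 2 classes. The class of 0.244 to 0.247 holds WT replicates 1, 2 and 4 with KO replicate 1, and the class of 0.235 to 0.236 holds WT replicate 3 with KO replicates 2, 3 and 4, so gain class and genotype were partly confounded.

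No release gene passed the test, and the mean over the set overlapped between the genotypes. The largest differences were a higher reading of the synaptotagmin Syt4 in KO, by 0.42 (SE 0.152), and a lower reading of Napa, the alpha-SNAP adaptor of Nsf, by 0.20 (-0.20, SE 0.0677). The brain complexins differed in opposite directions, Cplx1 by 0.18 (SE 0.07) and Cplx2 by -0.19 (SE 0.0775). The core SNARE genes Snap25, Vamp2 and Stx1a differed by 0.15, 0.02 and 0.15, each with overlapping groups. None of these met the threshold.

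Of the 38 genes, 0 passed at an adjusted p under 0.05, where 0.288% of all probes tested did, 0.199% higher and 0.0898% lower. Before adjustment, limma gave a p under 0.05 for 4 of the 38, or 10.5%, against a background of 8.10% of all probes. These were Syt4 and Cplx1, both higher, against a background of 3.76% for higher readings, and Napa and Cplx2, both lower, against 4.34%. The 4 lay among the 24 members whose spots were at least 2 times the blank level, 16.7% of them, where 12.5% of the 9006 equally bright probes had such a p. Groups did not overlap for 1 member, Syt2, which is 2.63% of the 38 against 4.95% of all probes, 2.42% with KO above and 2.53% with KO below. These shares are close to their backgrounds or below them.

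The median difference over the 38 genes was -0.01, beside -0.000775 over all probes, and 18 were higher and 20 lower, beside 49.3% of all probes higher. Averaged over the 38 genes, the arrays read 8.10, 8.19, 8.13 and 8.12 in WT and 8.14, 8.10, 8.13 and 8.19 in KO, with no separation of the groups. The split depends on the scaling. In the value table deposited by the authors, 10 of the 37 members with a value on every array were higher, where 32.5% of all probes were, and with arrays scaled to their 75th percentile 21 of 38 were, beside 68.8%. The small positive differences of Vamp1, Vamp2, Napb, Syngr3, Rab3a, Syt1, Syt7 and Bsn were negative in the value table. Those of Napb and Syt1 were also negative at the 75th percentile, where Syn3, Sv2c, Cplx3, Rims3 and Unc13a turned positive. The counts by role given below moved with them. In the deposited values 2 of 7 SNARE genes, 2 of 12 vesicle genes, 4 of 10 sensor and complexin genes and 2 of 8 active zone genes were higher, and at the 75th percentile 4, 6, 6 and 5 were.

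On the normalised scale the 95% interval of the difference lay within 1.5-fold either way for 23 of the 24 bright members, Syt4 being the exception. It lay within 2-fold for all 24. The offset of 50 also compresses spots a few times the blank level, so these folds do not bound the change in RNA. Within 1.25-fold it lay for 13 of the 24. For the 11 others, Snap25, Vamp2, Stx1a, Napa, Synpr, Syngr1, Sv2a, Rab3c, Syt4, Cplx1 and Cplx2, the interval reached beyond that size with 4 arrays a group. Spots of 7 members, Syn3, Sv2c, Syt2, Cplx3, Rims3, Unc13a and Bsn, lay under 1.25 times the blank level, and their narrow spread (median SD 0.0295 in WT) is that of spots close to the blank.

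**Figure D1:**
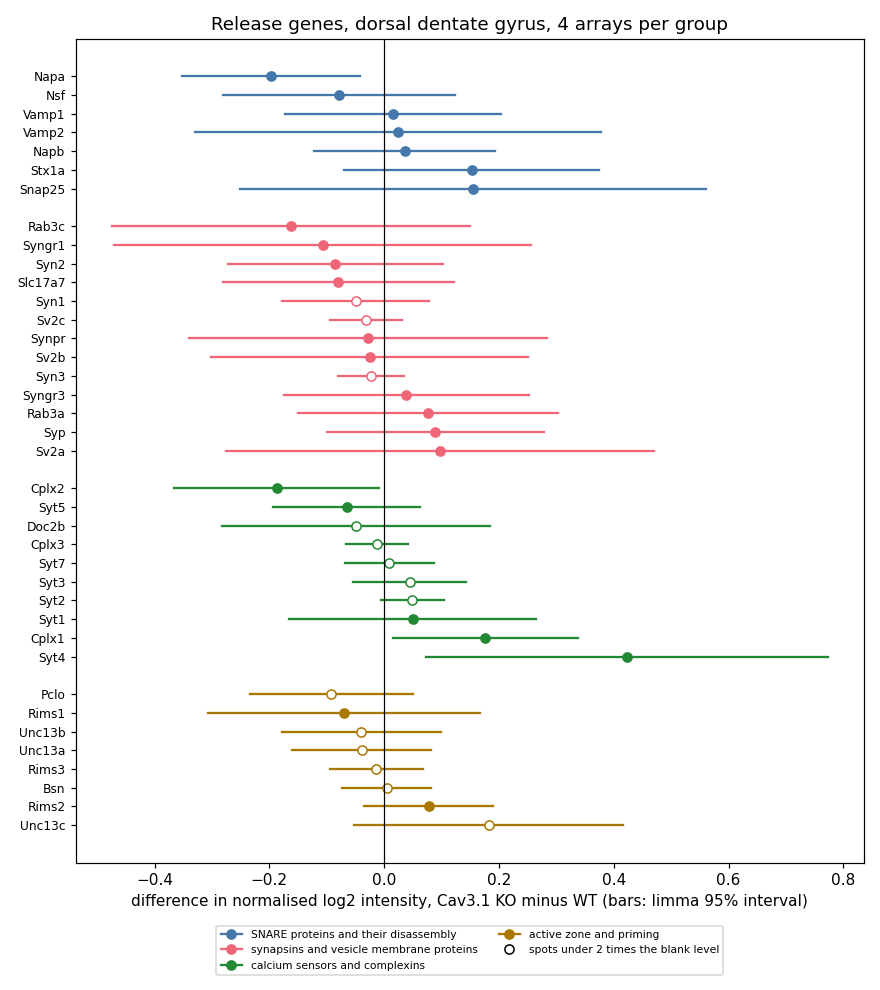
Difference between KO and WT in normalised log2 intensity (x axis) for each of the 38 genes (y axis, grouped by role and sorted by difference), with bars for the 95% interval from limma on 4 arrays a group and open points for genes whose spots lie under 2 times the blank level. The intervals of Napa, Cplx2, Cplx1 and Syt4 leave out 0 before adjustment, and no gene passed after it.

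Among the 7 genes for SNARE proteins and their disassembly, 5 were higher and 2 lower, 0 passed with limma (1 had an unadjusted p under 0.05), and the median difference was 0.02. Snap25, a SNARE held to the plasma membrane by lipid anchors, read 11.60, 12.48, 11.83 and 11.69 in WT and 11.94, 12.05, 12.08 and 12.14 in KO. WT replicate 2 was the highest of all 8 arrays, and the other WT arrays lay below every KO array. The difference was 0.15 (SE 0.176, limma adjusted p 0.962), with an SD of 0.4 in WT and 0.0828 in KO. Without WT replicate 2 it was 0.35, with an adjusted p of 0.111, the smallest over its alternatives, and the largest was 1, without WT replicate 1.

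Vamp2, the main vesicle SNARE of the forebrain, read 8.61, 8.85, 8.70 and 8.78 in WT and 9.26, 8.58, 8.54 and 8.66 in KO. KO replicate 1 stood above all other arrays, and the other KO arrays lay at the low end of the WT range or just below it. The difference was 0.02 (SE 0.154, limma adjusted p 0.997), and without that array it was -0.14. Stx1a, the syntaxin to which both partners bind, read 7.84, 7.55, 8.00 and 7.80 in WT and 8.03, 7.81, 7.91 and 8.06 in KO. The lowest array was WT replicate 2 and the groups overlapped, with a difference of 0.15 (SE 0.0966, adjusted p 0.823). The annotation links the Stx1a probe to a non-coding transcript record of that gene.

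Napa was the member with the smallest p. Its probe read 7.97, 8.06, 8.04 and 8.03 in WT and 7.72, 7.73, 8.04 and 7.82 in KO. The WT arrays lay close together, 3 KO arrays lay below all of them, and KO replicate 3 lay inside the WT range. The difference of -0.20 (SE 0.0677) had a limma p of 0.0191 and an adjusted p of 0.436, and an exact permutation p of 0.0857. It had the same sign within both chip series (-0.19 and -0.22) and within both gain classes (-0.30 and -0.18). The second series holds a single array of each genotype, and each gain class a single WT or a single KO array. These splits share arrays and do not replicate the difference. The smallest adjusted p of Napa among the alternatives was 0.073, without KO replicate 3, and the largest was 0.823, in the first chip series alone. Napb, the beta-SNAP of brain, differed by 0.04 (SE 0.0685), Nsf, the ATPase that both adaptors recruit, by -0.08 (SE 0.0879) and the second vesicle SNARE gene Vamp1 by 0.02 (SE 0.0817). None of the 3 had groups that were apart.

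Of the 13 genes for synapsins and vesicle membrane proteins, 4 were higher and 9 lower, 0 passed with limma (0 before adjustment), and the median difference was -0.03. Rab3c, a small GTPase of the vesicle surface, had the smallest p of them and read 9.44, 9.98, 9.53 and 9.44 in WT and 9.26, 9.33, 9.65 and 9.50 in KO. WT replicate 2 lay well above the other arrays, and the remaining WT values lay within the KO range. The difference was -0.16 (SE 0.135, limma adjusted p 0.919), and without WT replicate 2 it was -0.04. Its relative Rab3a, which cycles on and off vesicles with each round of release, differed by 0.08 (SE 0.0986).

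Syn1, a synapsin that tethers vesicles into clusters, read 6.13, 6.32, 6.09 and 6.10 in WT and 6.05, 6.09, 6.18 and 6.13 in KO. The highest array was again WT replicate 2, and the groups overlapped (-0.05, SE 0.0557, limma adjusted p 0.962). Syn2 and Syn3 differed by -0.08 (SE 0.0812) and -0.02 (SE 0.0248). Syp, the abundant vesicle membrane protein synaptophysin, read 8.06, 7.93, 8.23 and 8.15 in WT and 8.00, 8.16, 8.27 and 8.30 in KO. The ranges covered each other for the most part (0.09, SE 0.0823, adjusted p 0.936), and Synpr, synaptoporin, a synaptophysin relative of mossy fibre terminals, differed by -0.03 (SE 0.136).

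Slc17a7, the vesicular glutamate transporter VGLUT1, read 8.63, 8.37, 8.62 and 8.73 in WT and 8.41, 8.49, 8.44 and 8.69 in KO. The lowest array was WT replicate 2, and the others of WT lay in the upper part of the overall range, so the groups overlapped. The difference was -0.08 (SE 0.0874, limma adjusted p 0.959). The remaining members of the group, Syngr1, Syngr3, Sv2a, Sv2b and Sv2c, are vesicle proteins with several membrane spans and differed by -0.11 to 0.10. Their SE ran from 0.0275 for Sv2c, whose spots lay near the blank, to 0.162 for Sv2a.

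Of 10 measured genes for calcium sensors and complexins, 6 were higher and 4 lower, 0 passed with limma, and the median difference was 0.03. This group held 3 of the 4 members with an unadjusted p under 0.05, and the member without overlap. Syt4, a synaptotagmin of vesicles and dense-core granules that binds calcium poorly in one of its C2 domains, read 8.95, 9.49, 8.99 and 9.01 in WT and 9.72, 9.18, 9.63 and 9.60 in KO. In each group 3 arrays lay together, low in WT and high in KO, while WT replicate 2 and KO replicate 2 crossed over. The difference was 0.42 (SE 0.152), the limma p 0.0234, the adjusted p 0.485 and the exact permutation p 0.0571. It was positive within both chip series (0.36 and 0.60) and both gain classes (0.58 and 0.48), splits that rest on single arrays as for Napa. Without WT replicate 2 the difference was 0.55, with an adjusted p of 0.155. Over the alternatives the adjusted p ran up to 0.876, in the first chip series alone.

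Syt1, the fast calcium sensor of synchronous release, read 11.69, 12.07, 11.74 and 11.87 in WT and 11.81, 11.93, 11.78 and 12.05 in KO. WT replicate 2 was the highest and WT replicate 1 the lowest, so the KO arrays lay inside the WT range (0.05, SE 0.0935, limma adjusted p 0.986). Syt7, a slow sensor with high calcium affinity, read 6.12, 6.17, 6.12 and 6.12 in WT and 6.22, 6.10, 6.11 and 6.13 in KO. A single array stood high in each group, and the difference was 0.01 (SE 0.0336, adjusted p 0.996). Syt2, the fast sensor used mainly in hindbrain and by some interneurons, read 5.82, 5.85, 5.85 and 5.86 in WT and 5.91, 5.86, 5.88 and 5.91 in KO. Its groups did not overlap, by the narrow gap from 5.861 to 5.865, with a difference of 0.05 (SE 0.0237, adjusted p 0.686, exact permutation p 0.0286, the smallest possible). Its spots were 1.10 times the blank level, and with arrays scaled to their 75th percentile the groups overlapped. Syt3, Syt5 and Doc2b differed by 0.04, -0.06 and -0.05.

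Cplx1 and Cplx2, the paralogous complexins of brain synapses, differed in opposite directions, and neither passed. Cplx1 read 10.45, 10.37, 10.36 and 10.33 in WT and 10.62, 10.55, 10.70 and 10.36 in KO. The WT arrays were close together and 3 KO arrays lay above them, with KO replicate 4 among the WT values. The difference was 0.18 (SE 0.07, limma p 0.0354, adjusted p 0.562, exact permutation p 0.114). It was 0.24 within the first chip series and 0.00 within the second, and 0.24 and 0.18 within the gain classes.

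Cplx2 read 11.56, 11.34, 11.56 and 11.43 in WT and 11.48, 11.27, 11.18 and 11.21 in KO. KO replicates 2, 3 and 4 lay below all WT arrays and KO replicate 1 lay among them. The difference was -0.19 (SE 0.0775, limma p 0.0417, adjusted p 0.587, exact permutation p 0.0857), and it was -0.13 and -0.35 within the chip series and 0.04 and -0.34 within the gain classes. With gain class as a block it was -0.15, and the part of the gain class in it was not tested further. Cplx3, the complexin of ribbon synapses, had spots near the blank level and differed by -0.01 (SE 0.0236).

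The log2 ratio of the Cplx1 probe to the Cplx2 probe was computed within each array, a quantity chosen after the values were seen and given without a test. It was -1.10, -0.97, -1.20 and -1.10 in WT and -0.86, -0.72, -0.48 and -0.85 in KO, where only the shift between arrays is readable and not the level of one probe against the other. Every KO array lay above every WT array, and the means differed by 0.36. Leaving out single arrays gave 0.28 to 0.41. Without KO replicates 2 and 3 the shift was 0.24. Relatives among the 38 genes form 35 pairs in 11 families, and many of these pairs share a gene. This was the 1 pair, or 2.86%, whose ratio did not overlap between the genotypes. Ratios with Syt4 shifted further, up to 0.49 for Syt4 against Syt5, with overlapping groups. Of single probes 4.95% did not overlap, which is a different quantity, and no share was computed for ratios over all probes.

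The 250 bases before the start of both complexin genes are shown because theirs was the only ratio of relatives without overlap between the genotypes. They come from RefSeq (GRCm38.p6), written 5′ to 3′ on the strand of the gene, and capitals mark a GC box, GGGCGG or CCGCCC. Cplx1 lies at chr5:108550028-108550277 on the minus strand and Cplx2 at chr13:54302306-54302555 on the plus strand.
Cplx1: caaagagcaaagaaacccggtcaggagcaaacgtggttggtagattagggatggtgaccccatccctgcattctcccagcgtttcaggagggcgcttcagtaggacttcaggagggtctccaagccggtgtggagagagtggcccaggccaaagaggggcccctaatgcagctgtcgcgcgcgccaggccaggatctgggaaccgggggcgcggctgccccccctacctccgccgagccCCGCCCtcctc
Cplx2: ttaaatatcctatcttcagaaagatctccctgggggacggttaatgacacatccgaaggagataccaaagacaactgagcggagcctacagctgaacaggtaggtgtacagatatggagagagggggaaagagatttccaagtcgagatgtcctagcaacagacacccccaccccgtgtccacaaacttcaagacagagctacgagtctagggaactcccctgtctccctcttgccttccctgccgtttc
The Cplx1 window is 64.8% G or C with 15 CpG sites and 1 GC box, and the Cplx2 window is 50.8% G or C with 7 CpG sites and no GC box.

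The table held windows of 30 members, and Doc2a, Doc2b, Rims2, Snap25, Syn3, Syngr3, Syt4, Syt5, Syt7 and Vamp2 were not matched. The 30 first-listed windows had a median G and C content of 61.6% and a median of 14 CpG sites, beside 52% and 6 over 27025 genes. GGGCGG stood on either strand before 21 of the 30 members, or 70%, and before 35.4% of all genes. TATAAA was found before 1 member, Sv2b, or 3.33%, and before 14.3% of all genes. The cAMP response element TGACGTCA was found before Syn1 alone, 3.33% beside 1.77%, and CAGCACC, a stretch of the site of the neuronal repressor REST, before Napa, Sv2c and Syn1, 10% beside 6.56%. All motifs were searched on both strands, and none of the 4 is contained in another. Members and genes in general differ in base composition, and a match is a run of letters and not a measured binding site.

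**Figure D2:**
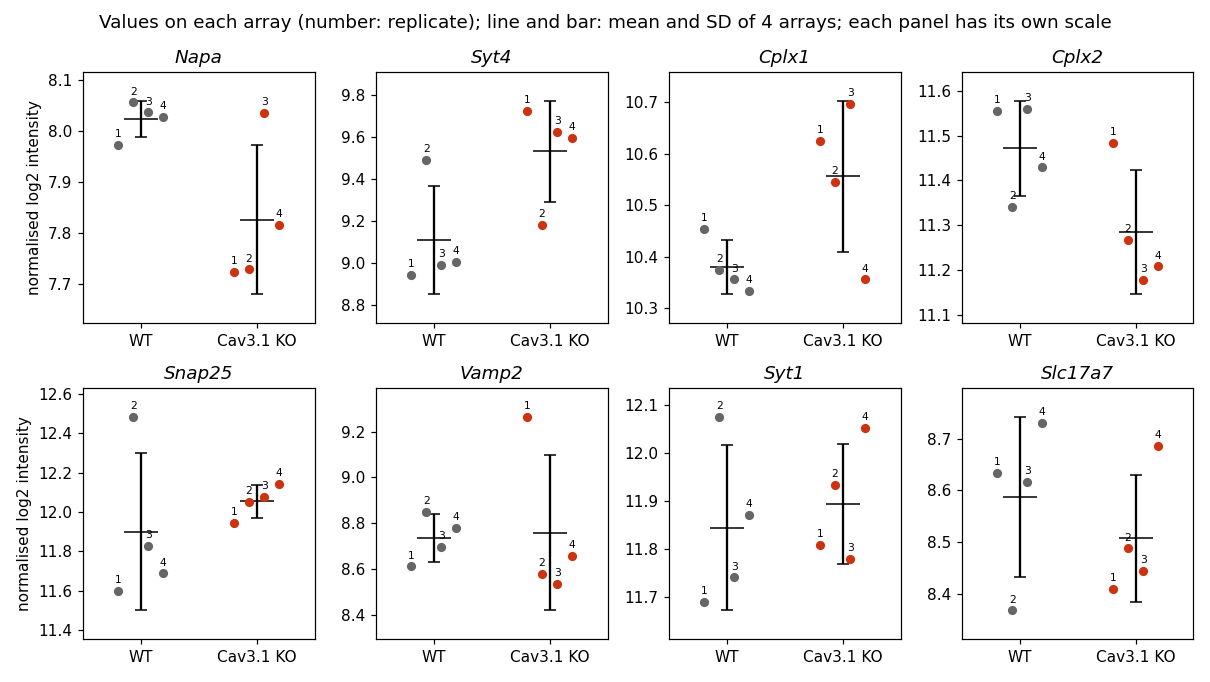
Normalised log2 intensity (y axis, its own scale in each panel) of 8 genes on every array (points, numbered by replicate) in WT and KO, with the mean as a line and the SD of 4 arrays as a bar. In Napa, Syt4, Cplx1 and Cplx2 most arrays of a group lie apart from the other group while 1 or 2 cross over, and in Snap25 and Vamp2 a single array, WT replicate 2 or KO replicate 1, sets much of the spread.

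Of 8 measured active zone and priming genes, 3 were higher and 5 lower, 0 passed with limma (0 before adjustment), and the median difference was -0.03. Unc13c, Munc13-3, a priming factor best known from cerebellar granule cells, read 6.65, 6.46, 6.30 and 6.26 in WT and 6.71, 6.66, 6.65 and 6.37 in KO. WT replicate 1 and KO replicate 4 crossed over, and the difference was 0.18 (SE 0.102, limma adjusted p 0.766). The second probe of the gene differed by 0.05 (SE 0.07). Unc13a, Munc13-1, the main priming factor at glutamate synapses, read 6.00, 6.01, 6.10 and 6.06 in WT and 6.08, 5.91, 5.92 and 6.11 in KO. The KO arrays lay on both sides of the WT arrays (-0.04, SE 0.0528, adjusted p 0.972), and Unc13b, Munc13-2, differed by -0.04 (SE 0.0601).

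Rims2, a scaffold that links Rab3, Munc13 and calcium channels, read 7.65, 7.78, 7.60 and 7.61 in WT and 7.79, 7.78, 7.73 and 7.65 in KO. KO replicates 1, 2 and 3 lay in the upper part of the range beside WT replicate 2, and KO replicate 4 lay among the other WT arrays (0.08, SE 0.0489, limma adjusted p 0.823), and a second probe differed by 0.05. Rims1, its close relative, read 9.64, 9.50, 9.56 and 9.27 in WT and 9.32, 9.27, 9.44 and 9.66 in KO. WT replicate 4 and KO replicate 4 stood opposite to the rest of their groups, and the difference was -0.07 (SE 0.103, adjusted p 0.976). Rims3, a short Rim that lacks the Rab3-binding part, differed by -0.01 (SE 0.0351).

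Pclo, Piccolo, read 6.25, 6.15, 6.24 and 6.39 in WT and 6.29, 6.16, 6.11 and 6.10 in KO. The ranges overlapped in their middle, and the difference was -0.09 (SE 0.0616, limma adjusted p 0.845). Bsn, Bassoon, the partner of Piccolo, read 6.06, 6.08, 5.99 and 6.00 in WT and 6.04, 6.09, 6.03 and 5.98 in KO. The groups coincided, with a difference of 0.00 (SE 0.0337, adjusted p 0.998), on spots 1.22 times the blank level.

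Single arrays stood at the edge of their group for many members at once. WT replicate 2 was the highest of its group for 18 of the 38 genes, 47.4%, where it was the highest for 31.9% of all probes. WT replicate 1 was the lowest of its group for 16, 42.1% beside 22%. In KO, replicate 4 was the highest for 17, 44.7% beside 26.2%, and replicate 2 for 2, 5.26% beside 23.8%. On WT replicate 2 Snap25, Rab3c, Syt4 and Syt1 were high together while Stx1a, Syngr1, Syp and Slc17a7 were low, so the members did not shift as 1 block on that array.

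**Figure D3:**
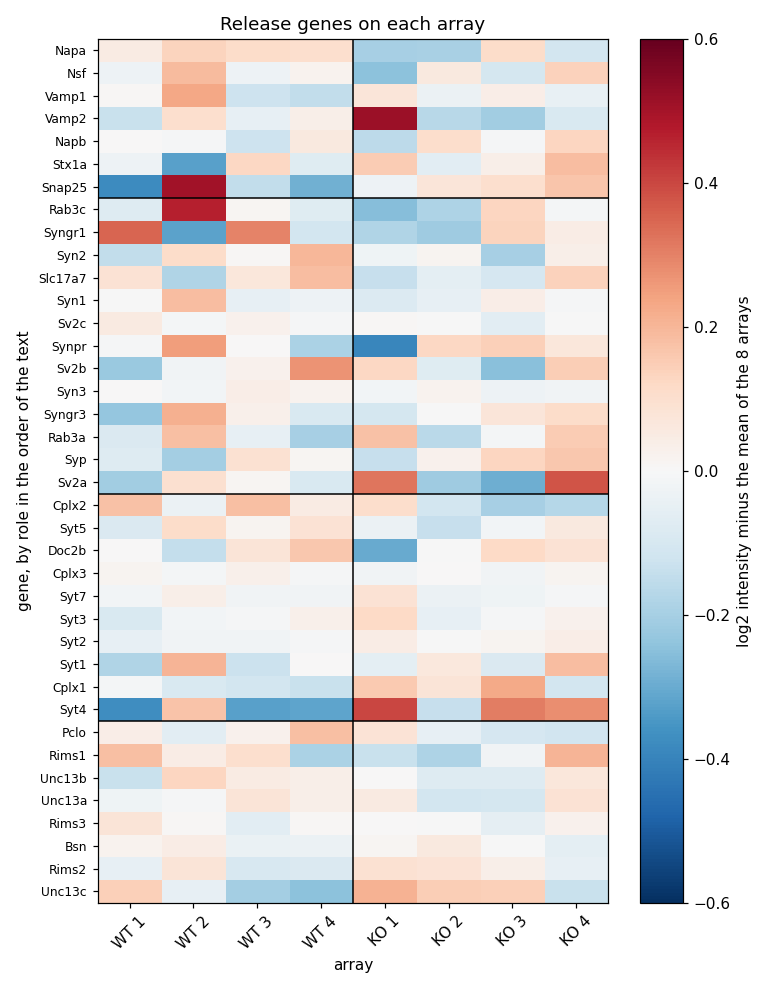
Normalised log2 intensity of each of the 38 genes (rows, in role order) on each of the 8 arrays (columns), as the difference from the mean of that gene over all arrays. WT replicate 2 carries both the high readings of Snap25 and Rab3c and the low ones of Stx1a and Syngr1, and Syt4 is low on 3 WT arrays and high on 3 KO arrays.

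A wider list of 118 further genes of release and vesicle recycling was read beside the members, of which 111 were tested. At an adjusted p under 0.05, 0 passed, with 61 higher, 50 lower and a median difference of 0.01. Unadjusted limma p-values were under 0.05 for 12 of them, 7 higher and 5 lower, against a background of 8.10% of all probes. The groups did not overlap for 6 of the 111, 3 in each direction, against a background of 4.95%, so both shares were near those of all probes.

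Ppfia1, liprin-alpha-1, a scaffold that positions active zones, came closest to the threshold and read 6.87, 6.80, 6.96 and 6.86 in WT and 6.65, 6.69, 6.66 and 6.66 in KO. All KO arrays lay below all WT arrays, at nearly 1 level, with a difference of -0.21 (SE 0.0358, limma adjusted p 0.0856). Rab3d, a Rab3 of secretory granules, read 6.79, 6.75, 6.71 and 6.82 in WT and 6.65, 6.55, 6.54 and 6.56 in KO. These groups were apart too, by -0.19 (SE 0.0362, adjusted p 0.109). Slc30a3, the transporter ZnT3 that loads zinc into mossy fibre vesicles, read 6.44, 6.58, 6.54 and 6.51 in WT and 6.40, 6.35, 6.32 and 6.41 in KO. The groups were apart by a small gap, with a difference of -0.15 (SE 0.0376, adjusted p 0.249).

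Sncb, beta-synuclein, a protein of presynaptic terminals, read 7.95, 7.97, 7.92 and 8.03 in WT and 8.22, 8.16, 8.12 and 8.04 in KO. The groups were just apart, with a difference of 0.17 (SE 0.0434, limma adjusted p 0.261). Baiap3, a relative of Munc13 that acts in dense-core vesicle traffic, read 6.87, 6.82, 6.54 and 6.53 in WT and 7.21, 7.34, 7.56 and 6.79 in KO. KO replicate 4 lay among the WT arrays and the difference was 0.54 (SE 0.16, adjusted p 0.353).

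Slc17a6, the vesicular glutamate transporter VGLUT2, which is low in granule neurons and high in thalamus and habenula, read 8.38, 8.62, 8.14 and 7.65 in WT and 8.68, 9.53, 9.73 and 8.66 in KO. KO replicates 2 and 3 stood highest, KO replicates 1 and 4 lay just above the highest WT array, and the groups did not overlap, with a difference of 0.95 (SE 0.3, limma adjusted p 0.38). The other thalamus and habenula markers were also highest on these 2 arrays on average. Of 11 further markers 10 were tested and 9 were higher. They averaged 7.02 and 7.06 on KO replicates 2 and 3, 6.51 and 6.48 on replicates 1 and 4, and 6.42 to 6.82 in WT. Tcf7l2, a widely used thalamic marker, was detected on 1 of the 8 arrays. The part of this tissue in the Slc17a6 reading was not tested.

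**Figure D4:**
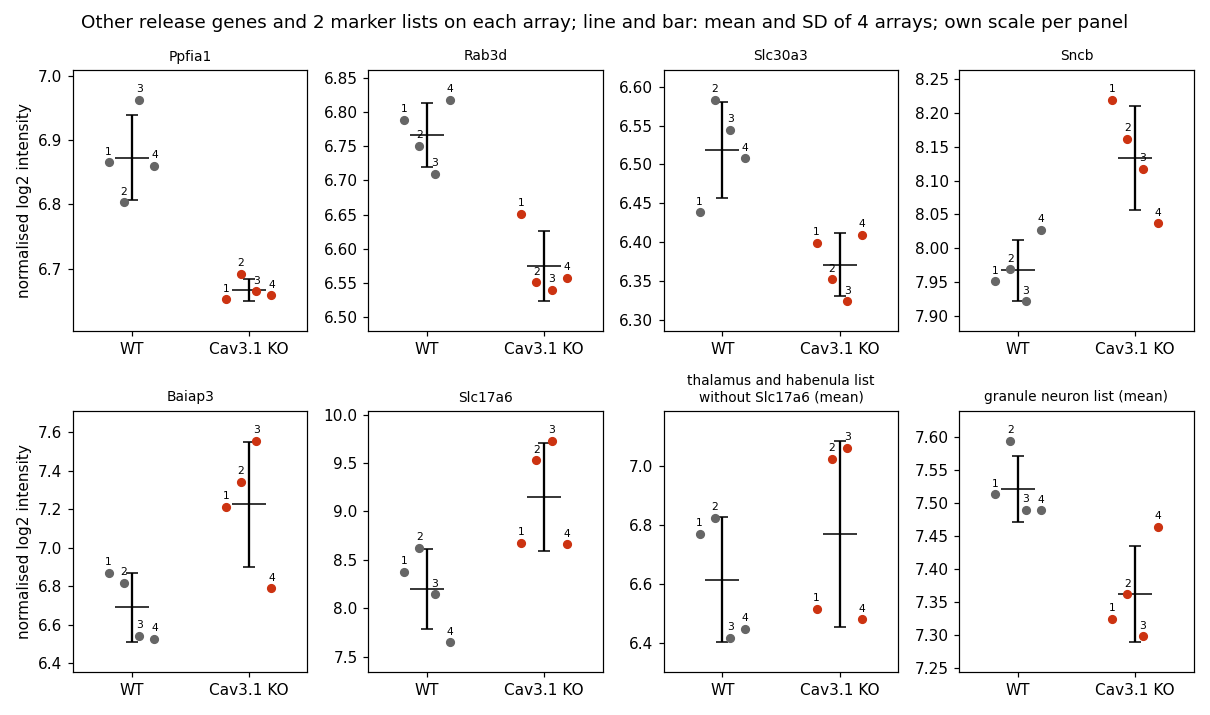
Normalised log2 intensity (y axis, its own scale in each panel) on every array of the 6 further release genes with the smallest p, and the mean of the thalamus and habenula markers without Slc17a6 and of the granule neuron markers, with the mean as a line and the SD of 4 arrays as a bar. The granule neuron mean includes Stxbp6, also a further release gene. Ppfia1 and Rab3d lie lower on all 4 KO arrays, Slc17a6 is highest on the same KO arrays 2 and 3 as the thalamus and habenula mean, and the granule neuron mean lies between 7.30 and 7.46 in KO and between 7.49 and 7.59 in WT.

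Marker genes of the cell types that the tissue could hold were read on the same arrays. Of the 10 granule neuron markers 7 were lower and 3 higher, and 1, C1ql2, fell past the threshold by 0.57 (SE 0.0509, limma adjusted p 0.0065). Before adjustment 5 lower and 1 higher had a p under 0.05, and 5 did not overlap between the groups, 4 with KO below and 1 with KO above. The 1 above was Calb1, a calcium buffer of mature granule neurons, with a difference of 0.34 (SE 0.127, limma adjusted p 0.523), and Dsp and Tdo2 were the other higher markers, by 0.04 and 0.07. The list mean was 7.49 to 7.59 in WT and 7.30 to 7.46 in KO. That mean includes Stxbp6, also one of the further release genes, which differed by -0.22 (SE 0.116). The interneuron list below shares Slc32a1 with the further release genes. All 6 CA1 markers were lower, with list means of 8.08 to 8.42 in WT and 7.92 to 8.37 in KO, and 0 passed with limma (0 before adjustment). Of 9 interneuron markers 7 were higher, with list means of 8.54 to 8.67 and 8.51 to 8.80, and 0 passed with limma. Before adjustment 3 interneuron markers had a p under 0.05, in both directions: Pvalb and Tac1 were higher by 0.25 and 0.24, and Npy differed by -0.40 with KO below WT on every array. All 5 tested markers of oligodendrocytes, of microglia and of choroid plexus were lower, with 0 past the threshold by limma (1, 1 and 0 before adjustment). The oligodendrocyte list means were 10.24 to 10.55 in WT and 9.99 to 10.63 in KO, and those of microglia 7.84 to 7.99 and 7.74 to 7.87. The choroid plexus means varied widely within each group, 7.48 to 9.13 in WT and 6.32 to 8.96 in KO. They were lowest on WT replicate 3 and KO replicate 4. Among 6 CA3 markers 2 were higher and 4 lower with a median of -0.03, and 1, Bok, fell by 0.65 (SE 0.0593, limma adjusted p 0.0065). Before adjustment 2 CA3 markers had a limma p under 0.05, Bok and Nectin3 (-0.25, SE 0.107), both lower. The CA3 list mean, which includes Bok, was 7.29 to 7.39 in WT and 7.09 to 7.28 in KO, without overlap. Among 6 endothelial markers 3 were higher and 3 lower with a median of 0.000426. Of these 1, the tight junction gene Cldn5, fell by 0.79 (SE 0.0922, limma adjusted p 0.0182). Of 4 tested hilar mossy cell markers 2 were higher and 2 lower, with list means of 7.02 to 7.35 in WT and 7.15 to 7.53 in KO. None passed with limma (1 before adjustment), and Drd2 did not overlap, with KO above. Of 6 astrocyte markers 5 were higher and 1 lower with a median of 0.01, and 0 passed with limma (0 before adjustment). The counts before adjustment stand against 8.10% of all probes. Those without overlap stand against 4.95%, 2.53% with KO below and 2.42% with KO above. In bulk tissue, fewer cells of a type and less RNA per cell cannot be told apart, and the part of cell content in the readings of the release genes was not tested.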

How the data were processed

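Per the labels' protocols, total RNA was purified on columns, amplified, coupled to Cy5 and hybridised to single-colour TORAY chips, 4 WT and 4 Cav3.1 KO. The deposited scanner files hold a median spot intensity per spot, not normalised, per the file headers; how 3 scan gains were merged was not given in the sources used here. The column headed as background tracked each spot (correlation of logarithms 0.994 to 0.996) and was not subtracted, although a local background had been planned. The authors' deposited value table holds a linear intensity with a median of 25 on each array, a straight line in the spot intensity. It served as an alternative.

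Intensities were corrected with normexp (offset 50), put on the log2 scale and quantile normalised, from the deposited intensities of all spots. Probes above the 95th percentile of the blank spots on at least 4 of 8 arrays were tested; 2239 dim probes and 84 with a spot marked as not good were left out, and 21150 of 23473 remained. Groups were compared with lmFit and eBayes of limma 3.58.1 in R 4.3.3, after a test on simulated data, with Benjamini-Hochberg adjustment over all probes. Of all probes, 20690 had 1 gene symbol and 2783 none. The number of arrays limits the precision.

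All 40 members are accounted for. Values on every array are given for members without overlap, the 10 with the smallest p and the defining members of each role, and for the 6 further release genes with the smallest p. The members and the lists were chosen with earlier results of these data known. Alternatives changed the background correction, the scaling, the filter, the probe, the spread estimate and blocks for chip series, gain class and replicate number, and left out arrays. The gain class was chosen after seeing the data. Promoter windows are those of RefSeq, GRCm38.p6, used for sequence only.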

Additional observations from a re-analysis of the deposited data

Results flagged for a closer look

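The gap of 1 array to the next, as a share of its group's range, was unusually wide in 6 of the 76 groups examined (38 genes in 2 genotypes, 4 arrays each), and chance flags about 1 in 20 groups, or 3.8 here. WT replicate 2 was the highest WT array for 3 genes: for Rab3c the share was 0.843 (9.98 against 9.53 on the next array), for Syt4 0.891 (9.49 against 9.01) and for Syt7 0.915 (6.17 against 6.12). KO replicate 1 was the highest of its group for Vamp2, with a share of 0.835 (9.26 against 8.66), and the lowest for Synpr, the mossy fibre vesicle protein synaptoporin, with 0.856 (8.43 against 8.89). KO replicate 3 was the lowest for Sv2c, with 0.847 (5.75 against 5.80), on spots 1.06 times the blank level.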

How the results depend on the processing

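No member passed the threshold in any of the 22 alternatives, or in any of 798 values of single members. The lowest adjusted p was 0.073, for Napa without KO replicate 3. The further release genes also had 0 calls in each. The count of members with an unadjusted p under 0.05 was 1 in the first chip series alone and 1 to 5 with single arrays left out (1 without WT replicate 4, KO replicate 2 or KO replicate 3, and 2 without WT replicate 3). The count without overlap was 0 at the 75th percentile, 3 in the first chip series, 5 without KO replicates 2 and 3, and 1 to 3 with single arrays left out. With fewer arrays, groups are apart more easily. In the authors' value table the median member difference was -0.0995 beside -0.0656 over all probes, with 10 of 37 members higher. Calls over all probes were 61 and became 110 at the 75th percentile, 34 in the value table, 7 in the first chip series, 17 without KO replicates 2 and 3, 23 with gain class as a block and 16 to 49 with single arrays left out. Replicate numbers did not pair the arrays, since deviations of equally numbered arrays correlated at -0.115 to 0.0109, and with the replicate block 8 probes and 0 members were called. Signs changed in 49 of the member values, in 20 members. In the value table the reversed differences were Vamp1 -0.0262, Vamp2 -0.0423, Napb -0.0828, Syngr3 -0.000681, Rab3a -0.00869, Syt1 -0.0537, Syt7 -0.0183 and Bsn -0.0296. At the 75th percentile they were Napb -0.0407, Syn3 0.0308, Sv2c 0.0223, Syt1 -0.0131, Cplx3 0.0420, Rims3 0.0356 and Unc13a 0.00324. In the first chip series they were Vamp1 -0.00464, Napb -0.0370 and Syt1 -0.0376, with gain class as a block Syp -0.0177, Syngr3 -0.0202, Sv2b 0.0158 and Rims3 0.0130, and without KO replicates 2 and 3 Sv2b 0.12, Rims3 0.00861, Unc13a 0.0494, Unc13b 0.0172 and Bsn -0.0209. With single arrays left out the ranges that crossed 0 were Bsn -0.0141 to 0.0241, Doc2b -0.11 to 0.0429, Napb -0.00172 to 0.0948, Rims3 -0.0370 to 0.00954, Sv2a -0.0130 to 0.21, Sv2b -0.10 to 0.0607, Syn1 -0.0738 to 0.00413, Syngr3 -0.0327 to 0.12, Synpr -0.0971 to 0.0976, Syt1 -0.00324 to 0.13, Syt7 -0.0182 to 0.0231, Vamp1 -0.0307 to 0.0964 and Vamp2 -0.14 to 0.0981. The cause was not tested. Signal over blank limits the members under 2 times the blank level.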

Other observations

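Synaptotagmins and related genes outside the 40 leaned one way. The list was not restricted to genes known to sense calcium. Of 18 tested, among them further synaptotagmins, the synaptotagmin-like Sytl genes, Rph3a and Cadps, 15 were higher in KO and 3 lower, where 49.3% of all probes were higher. The list mean ranged from 7.07 to 7.11 in WT and from 7.14 to 7.16 in KO, without overlap, and the median difference was 0.05. The lean depended on the scaling: with arrays scaled to their 75th percentile 17 of 18 were higher, beside 68.8% of all probes, and in the value table of the authors 10 of 16 were, beside 32.5%, and under both the list means of the groups overlapped. No gene of the list passed, the smallest limma adjusted p being 0.472, for Syt10, which differed by 0.11 (SE 0.0375). Spots of Syt10, Syt6, Syt14, Syt9, Syt8 and Rph3al, all counted as higher, lay near the blank, at 1.06 to 1.24 times its level. Sytl2, which tethers Rab27 vesicles, differed by 0.13 (SE 0.0487). The list was given no test. The 26 endocytosis genes tested were split evenly, 13 higher and 13 lower, with Dnm3, a dynamin of neurons, at 0.26 (SE 0.108, adjusted p 0.587).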
